A study of Ficus obtusifolia with 4 samples.

Results

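Transcripts related to the recognition of pollen by the stigma and style were followed in flowers of Ficus obtusifolia, a fig whose pollen is carried into the closed inflorescence, or syconium, by a foundress of the wasp Pegoscapus hoffmeyerii. A transcript was taken where its protein description contained s-locus, self-incompatib, s-receptor, feronia, rapid alkalinization, arabinogalactan, fasciclin, stigma, pollen or lectin receptor, and neither pectate lyase nor polygalacturonase. This rule found 154 of the 54550 assembled transcripts, none of them through the words stigma or lectin receptor. The name of the group goes beyond its content, since 95 of the 154 had kinase or receptor in the description, and the others were peptides, wall proteins and proteins named after pollen. The descriptions come from protein matches in other species, and a member is called here by its locus number in the assembly.

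Flowers nearest to the lumen (gall flowers) and flowers nearest to the syconium wall (seed flowers) were taken by position alone from syconia of a single recipient tree. Receptive flowers came from bagged syconia before any foundress had been introduced, and pollinated flowers from syconia collected 24 hours after a single foundress had been placed in each. Flowers of several syconia were pooled into 1 library for each of the 4 flower types, with no replicates, and how far samples of the same flower type vary cannot be seen from them. A pair of libraries differs by pools of syconia as well as by stage or position, and in pools of whole flowers fewer cells of a type and less RNA per cell cannot be told apart.

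In flowers that reject their own pollen, proteins of the S locus decide which pollen is accepted. In Brassica an S-locus receptor kinase on the stigma binds a pollen peptide, whereas in the nightshade and rose families style ribonucleases are met by F-box proteins of the pollen. FERONIA is a receptor kinase that binds rapid alkalinization factor peptides (RALFs). In Arabidopsis it acts in the reception of the pollen tube at the ovule, and it also senses the wall of growing cells. Arabinogalactan and fasciclin-like arabinogalactan proteins are glycoproteins of the cell surface that are abundant along the path of the pollen tube. Members of all these families also act outside the flower, and a description does not show that a fig protein has the role of the protein it is named after.

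Libraries held 51063005 mapped reads in receptive gall, 58969477 in pollinated gall, 11584069 in receptive seed and 22141107 in pollinated seed flowers. Levels are given as RPKM, in which a read count is divided by the length of the transcript and by the depth of its library. Ratios of RPKM have exact conditional binomial 95% intervals, which stand for counting error alone and are too narrow wherever several reads stem from the same molecule. A transcript was taken as past the fold where its RPKM was above 20 in at least 1 library, its ratio was at least 2 in either direction and the interval left out 1. This compares 2 libraries, not 2 conditions. The main test with a measure of spread was a model of all 4 libraries in which stage and flower type were added. It used edgeR's quasi-likelihood F-test, Benjamini-Hochberg adjustment and 1 residual degree of freedom, with DESeq2's Wald test on the same model as an alternative. The residual is how far the stage change differs between the flower types, and not the spread of samples of the same flower type. Transcripts described by a hymenopteran genus (490) held 45219 reads in pollinated gall flowers and 24, 2 and 23 reads in receptive gall, receptive seed and pollinated seed flowers. The paper assigned many more transcripts of pollinated gall flowers to Hymenoptera, so these 490 are a small part of the wasp transcripts. Pollen itself was followed by 7 villin and profilin transcripts outside the group, whose summed RPKM was 156, 165, 136 and 154 in receptive gall, pollinated gall, receptive seed and pollinated seed flowers. Single transcripts moved more than the sum: profilin Locus 6373 had 13.8, 32.9, 17.0 and 15.4, villin Locus 4024 had 41.5, 34.7, 12.8 and 32.8, and profilin Locus 20582 had 85 reads in pollinated gall flowers and 0 in the others. These 7 are not particular to pollen, and no transcript was described as LAT52. The part of wasp or pollen RNA in the ratios below was not tested.

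The 154 members took similar shares of every library, namely 0.342% of the reads in receptive gall, 0.309% in pollinated gall, 0.309% in receptive seed and 0.280% in pollinated seed flowers. Added up over the members, RPKM came to 2418, 2373, 2322 and 2151 in these libraries. Most members were rare, with a median of the mean RPKM of 2.50, and 26 had a mean above 20. Reads were found on 149 members in receptive gall, 153 in pollinated gall, 103 in receptive seed and 133 in pollinated seed flowers, and on 101 in every library. Thinned to 11584069 reads, the libraries showed reads on 139, 141, 103 and 128 members, and on 35972, 47167, 30078 and 35259 of all transcripts, so that receptive seed flowers had the fewest in both. With no read seen, 3 reads remain possible, and for 1 kb of transcript in receptive seed flowers this limit equals an RPKM of 0.259. The members had a median length of 965.5 bp, against 449 bp for all transcripts.

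Of the 154 members, 34 were above the RPKM minimum. No reads in receptive seed flowers were found for 51 members (33.1%), against 43.9% of the 53609 transcripts with any reads. For 30 of the 154 (19.5%) this was the only library without reads, against 14.0% of the 53609. The S-locus and S-receptor type was the largest class, with 85 members of which 7 were above the minimum. The other classes were proteins named after pollen (27 members, 10 above the minimum), FERONIA type receptor kinases (17, with 4 above), fasciclin proteins (14, with 6 above), self-incompatibility proteins (5, with 2 above), arabinogalactan proteins (3, with 2 above) and RALFs (3, all above). Just above the minimum were Locus 9719 and Locus 21391, with a highest RPKM of 20.1 and 22.6, and just below it were Locus 31216 and Locus 4939, with 19.9 and 18.6. The plot of member levels by library gives the values of the 34.

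**Figure D1:**
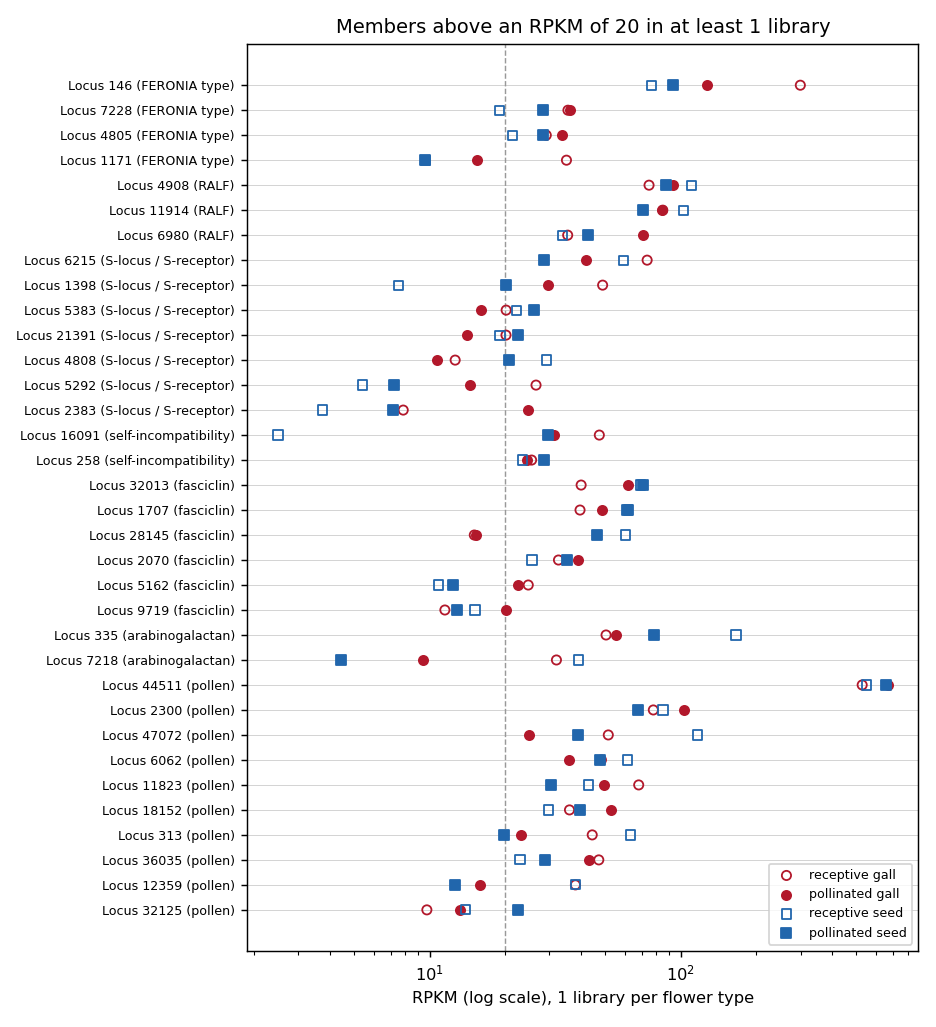
RPKM (log scale) of the 34 members above an RPKM of 20 (dashed line) in at least 1 library, 1 row per transcript, with open symbols for receptive and filled symbols for pollinated flowers, circles for gall and squares for seed flowers. Locus 44511 lies to the right of all others in every library. Locus 146 comes nearest to it in receptive gall flowers, at 299 against 527. Locus 16091 is lowest in receptive seed flowers, at an RPKM of 2.49.

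Between receptive and pollinated flowers few of the 34 members above the minimum were past the fold, and more of these were lower than higher in pollinated flowers. In gall flowers 1 of the 34 members (2.94%) was past the fold as higher in pollinated flowers. Of all 10434 transcripts above the minimum, 6.45% were. Lower were 5 members (14.7%), against 5.7% of all. In seed flowers 2 members (5.88%) were higher, against 13% of all, and 6 (17.6%) were lower, against 10.6% of all. The median log2 ratio of the 34 was -0.09 in gall flowers, where that of all transcripts was 0.03, and 0.11 in seed flowers, where that of all transcripts was 0.00. The gall and seed comparisons share no library. They had 3 lower members in common, which is 60% of the 5 in gall flowers and 50% of the 6 in seed flowers. For all transcripts the shared lower calls were 39.5% of those in gall and 21.3% of those in seed flowers. No member was past the fold as higher in both. The lean to lower was not seen over all members with at least 10 reads in both libraries. Of these, 61 of 110 had a stage ratio above 1 in gall flowers (55.5%, against 50.5% of all transcripts). For seed flowers it was 52 of 87 (59.8%, against 50.2%).

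In the additive model, a fit that sums a stage and a flower type effect, 112 members could be fitted, and none was called for stage by edgeR's quasi-likelihood test, where 0.397% of all 27675 transcripts fitted were called as higher and 0.235% as lower in pollinated flowers. At an unadjusted p under 0.05 there were 12 members of 112 (10.7%, against 5.47% of all transcripts), 4 of them higher and 8 lower, and DESeq2 called 3 members, 1 higher and 2 lower, where it called 1.13% of all transcripts as higher and 0.846% as lower. The 3 were Locus 9268 as higher and Locus 7218 and Locus 28692 as lower. The 12 were spread over the classes, with 5 of the 8 lower ones among the proteins named after pollen. Over the 112 members the median log2 stage difference was 0.19, and 72 were above 0. Over all transcripts it was 0.08, and 15592 of the 27675 were above 0. The plot of the stage ratios shows the members by class.

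**Figure D2:**
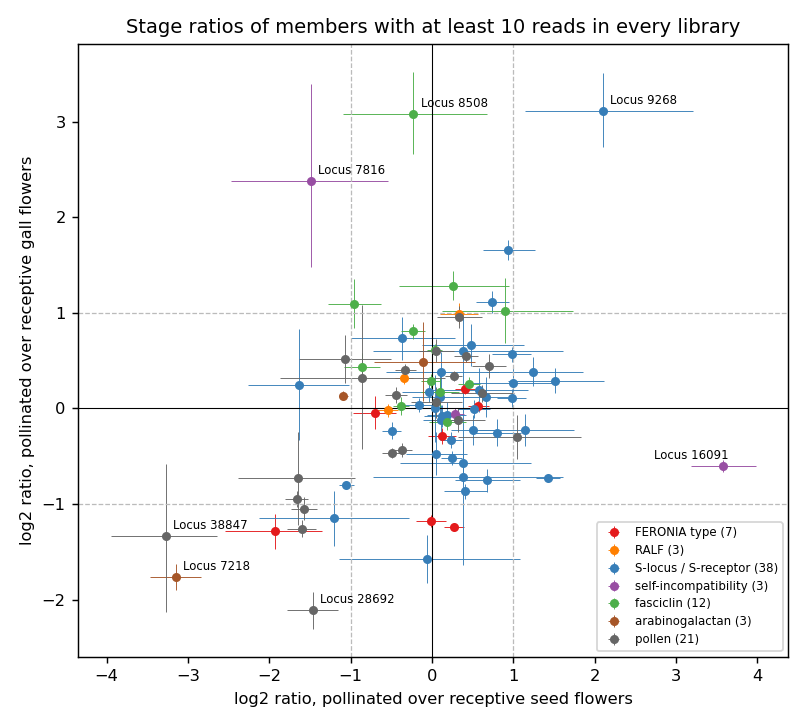
Log2 ratio of pollinated over receptive flowers in seed flowers (x axis) and in gall flowers (y axis) for the 87 members with at least 10 reads in every library, coloured by class, with 95% intervals for counting error and dashed lines at a 2-fold ratio. Most points lie near the origin, Locus 7218 and Locus 38847 lie low in both flower types, and Locus 16091 lies far to the right.

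The 3 members past the fold as lower in pollinated flowers of both types were an arabinogalactan peptide and both calcium-binding pollen allergens. Locus 7218, described as arabinogalactan peptide 16-like, a short proteoglycan of the cell surface, had an RPKM of 32.0 in receptive gall, 9.42 in pollinated gall, 39.2 in receptive seed and 4.43 in pollinated seed flowers. Both receptive libraries lay above both pollinated libraries. The ratio of pollinated over receptive flowers was 0.294 (0.267 to 0.324) in gall and 0.113 (0.0901 to 0.140) in seed flowers. Its log2 difference over both flower types was -2.46, with an adjusted p of 0.0869 in edgeR's quasi-likelihood test, the smallest of any member for stage. Over 5 alternatives the adjusted p ran from 7.19e-05 to 0.0773, and it was 0.000440 in DESeq2.

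Calcium-binding pollen allergens (polcalcins) are small proteins with calcium-binding EF hands, first known from pollen. Locus 47072 had an RPKM of 51.5 in receptive gall, 24.9 in pollinated gall, 116 in receptive seed and 39.2 in pollinated seed flowers, and its ratio by stage was 0.484 (0.445 to 0.526) in gall and 0.337 (0.301 to 0.377) in seed flowers. Locus 12359 had an RPKM of 38.1, 15.9, 38.1 and 12.6 in the same order, with ratios of 0.418 (0.392 to 0.445) in gall and 0.330 (0.292 to 0.374) in seed flowers. For both polcalcins each receptive library was above the pollinated library of the same flower type, and neither was called by edgeR's quasi-likelihood test, with adjusted p of 0.427 and 0.302.

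Proteins named after pollen were present before pollen had been brought in. The 27 members of this class summed to an RPKM of 1027 in receptive gall, 1110 in pollinated gall, 1105 in receptive seed and 1028 in pollinated seed flowers. The largest share of the mean level, 56.2%, came from Locus 44511, described as pollen-specific protein C13-like after a protein of maize pollen, whose RPKM was 527, 667, 547 and 659 in the same order. Its stage ratios of 1.27 (1.22 to 1.32) in gall and 1.20 (1.12 to 1.29) in seed flowers were under the fold. The transcript is 170 bp long, and a short transcript reaches a high RPKM with few reads (1078 to 6691 here).

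Without Locus 44511 the class had a smaller share of the reads in pollinated than in receptive flowers, at a ratio of 0.906 (0.893 to 0.920) in gall and 0.706 (0.686 to 0.726) in seed flowers. By member, and with Locus 44511, 13 of 24 with at least 10 reads in both libraries were above 1 in gall flowers, with a median of 1.07. In seed flowers 9 of 21 were, with a median of 0.775. Of the 10 class members above the minimum, both polcalcins were past the fold in gall flowers, and both polcalcins and Locus 313 were in seed flowers, all of them lower. Locus 313 encodes a pollen-specific C2 domain protein, a type with a lipid-binding domain, and had an RPKM of 44.4 in receptive gall, 23.1 in pollinated gall, 63.0 in receptive seed and 19.9 in pollinated seed flowers. Its ratio was 0.519 (0.491 to 0.549) in gall and 0.315 (0.286 to 0.348) in seed flowers. The pollinated libraries were the lower ones in both cases, but in gall flowers the ratio missed the fold by a small margin.

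The 5 members with a pollen C2 domain did not move together. Locus 28692, below the minimum at an RPKM of 13.3, 3.08, 12.1 and 4.36 in receptive gall, pollinated gall, receptive seed and pollinated seed flowers, had stage ratios of 0.232 (0.202 to 0.265) in gall and 0.362 (0.291 to 0.449) in seed flowers. Locus 11823 had ratios of 0.725 and 0.712, and Locus 32125 had ratios above 1, of 1.36 (1.24 to 1.49) in gall and 1.62 (1.41 to 1.87) in seed flowers. Locus 2300, described as SF21-like after a gene of sunflower pollen and style, had an RPKM of 77.7, 103, 84.9 and 67.8, with a ratio above 1 in gall flowers (1.32) and below 1 in seed flowers (0.798). Locus 6062, a further pollen-specific protein, had 48.3, 35.7, 61.3 and 47.5 and ratios of 0.740 and 0.775.

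Among the rarer pollen-named members, Locus 38847, of the Ole e 1 allergen and extensin family of secreted wall proteins, was highest in receptive seed flowers. Its RPKM was 1.32 in receptive gall, 0.524 in pollinated gall, 15.3 in receptive seed and 1.59 in pollinated seed flowers, from 48, 22, 126 and 25 reads. Its stage ratio was 0.104 (0.0647 to 0.160) in seed and 0.397 (0.228 to 0.670) in gall flowers. Locus 6728, described as DUO pollen 3, which in Arabidopsis is needed for the division that forms the sperm cells, was read in all libraries, at an RPKM of 6.85, 7.54, 10.8 and 7.96.

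FERONIA type receptor kinases were most abundant in receptive gall flowers. The 17 members summed to an RPKM of 436 in receptive gall, 239 in pollinated gall, 152 in receptive seed and 180 in pollinated seed flowers, and 59.1% of their mean level came from Locus 146. Locus 146 had an RPKM of 299 in receptive gall, 127 in pollinated gall, 76.7 in receptive seed and 92.7 in pollinated seed flowers. The receptive gall library stood above the other 3.

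Pollinated over receptive flowers, Locus 146 stood at 0.424 (0.411 to 0.436) in gall flowers and at 1.21 (1.11 to 1.32) in seed flowers, and gall over seed at 3.90 (3.63 to 4.19) in receptive and 1.37 (1.30 to 1.44) in pollinated flowers. It is 880 bp long, shorter than the other 3 above the minimum (2925 to 3507 bp). Without it the class was still lower in pollinated gall flowers, with a ratio of 0.815 (0.799 to 0.832), and higher in pollinated seed flowers, with 1.19 (1.13 to 1.24).

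Of the other FERONIA type members, Locus 1171 followed the same order in gall flowers, with an RPKM of 35.1 in receptive and 15.5 in pollinated flowers, a ratio of 0.442 (0.423 to 0.461), while receptive and pollinated seed flowers had 9.65 and 9.57. Locus 7228 (35.6, 36.2, 19.0 and 28.2 in receptive gall, pollinated gall, receptive seed and pollinated seed flowers) and Locus 4805 (29.2, 33.6, 21.4 and 28.2) were not past the fold in any comparison. Locus 9913, below the minimum at 8.81, 3.62, 3.64 and 0.953, was lower in pollinated flowers of both types, at ratios of 0.410 (0.362 to 0.465) and 0.262 (0.171 to 0.393). Of the 17 members, 10 had no reads in receptive seed flowers (58.8%, against 33.1% of all members and 43.9% of all transcripts with any reads), and these had between 3 and 123 reads in receptive gall flowers.

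The RALF peptides, which FERONIA type kinases bind, were not highest in receptive gall flowers in any of the 3 cases. Locus 4908 had an RPKM of 74.8 in receptive gall, 93.4 in pollinated gall, 110 in receptive seed and 87.0 in pollinated seed flowers, and Locus 11914 had 84.8, 83.8, 102 and 70.4. Neither was past the fold in any comparison. The third RALF, Locus 6980, had 35.5, 70.6, 33.9 and 42.7, so that pollinated gall flowers stood above the rest, at a ratio of 1.99 (1.85 to 2.14) to receptive gall flowers, just under the fold, and of 1.26 (1.07 to 1.48) in seed flowers.

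Locus 335, described as arabinogalactan protein 16, was the most abundant of the arabinogalactan proteins and was highest in receptive seed flowers. Its RPKM was 50.4 in receptive gall, 55.4 in pollinated gall, 166 in receptive seed and 78.1 in pollinated seed flowers. The stage ratio was 0.470 (0.452 to 0.490) in seed flowers and 1.10 (1.06 to 1.13) in gall flowers. The third member, arabinogalactan peptide 20 (Locus 34090), was rare, with 2.25 to 4.41.

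Of the 14 fasciclin proteins, 12 were of the plant type, anchored glycoproteins with a fasciclin domain, and none was past the fold by stage. In gall flowers 11 of these 12 had a ratio of pollinated over receptive above 1, with a median of 1.44. Of all transcripts with at least 10 reads in both libraries, 50.5% were above 1, with a median of 1.01. In seed flowers 6 of the 12 were above 1, against 50.2% of all, with a median of 1.01 against 1.00 for all. The 2 most abundant, Locus 32013 and Locus 1707, had ratios of 1.53 (1.47 to 1.60) and 1.22 (1.16 to 1.29) in gall flowers. Both were lowest in receptive gall flowers, at an RPKM of 40.1 and 39.7, and reached 61.5 to 70.9 and 48.6 to 62.0 in the other libraries. Locus 2070, fasciclin-like arabinogalactan protein 17, had 32.6, 39.1, 25.6 and 35.2 in receptive gall, pollinated gall, receptive seed and pollinated seed flowers.

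Locus 8508 had the largest stage ratio of the fasciclin-like proteins, although it was below the minimum. It had 51 reads in receptive gall, 497 in pollinated gall, 19 in receptive seed and 31 in pollinated seed flowers, and an RPKM of 0.821, 6.92, 1.35 and 1.15. The ratio was 8.44 (6.32 to 11.5) in gall and 0.854 (0.467 to 1.60) in seed flowers, so that only pollinated gall flowers were high. The remaining 2 fasciclin members, described as fasciclin isoform e and fasciclin-3-like isoform 2 (Locus 42200 and Locus 47626), carry names used for insect proteins. They had 17 and 11 reads in pollinated gall flowers, the library with 45219 reads on transcripts described by a hymenopteran genus, and none elsewhere.

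Proteins of the self-incompatibility class were few. Locus 16091, described as an S3 self-incompatibility locus-linked pollen protein after a gene linked to the S locus of Petunia, had an RPKM of 47.4 in receptive gall, 31.2 in pollinated gall, 2.49 in receptive seed and 29.7 in pollinated seed flowers, from 4691, 3561, 56 and 1274 reads. Receptive seed flowers were the low library, and the other 3 lay between 29.7 and 47.4. The stage ratio was 11.9 (9.11 to 15.8) in seed flowers and 0.657 (0.629 to 0.687) in gall flowers, and the ratio of receptive gall over receptive seed flowers was 19.0 (14.6 to 25.2). The related S1 transcript, Locus 258, had 25.5, 24.5, 23.5 and 28.5, with a stage ratio of 0.963 for gall flowers and of 1.22 for seed flowers.

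The other 3 self-incompatibility members belong to the S1 family, named after the small stigma proteins that reject self pollen in the poppy. They were rare, with 20 reads in all in receptive gall, 143 in pollinated gall, 25 in receptive seed and 49 in pollinated seed flowers. Locus 7816 had an RPKM of 0.442, 2.29, 4.06 and 1.44 in that order, and thus a stage ratio of 5.20 (2.80 to 10.5) for gall flowers and 0.356 (0.180 to 0.686) for seed flowers. Locus 21910 had 8, 63, 0 and 30 reads, with a stage ratio of 6.82 (3.26 to 16.5) for gall flowers. With 3 reads taken for the 0, its stage ratio for seed flowers was 5.23.

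The 85 members of the S-locus and S-receptor type were 61 G-type lectin S-receptor-like kinases, 17 S-locus lectin protein kinases, 4 S-locus F-box brothers and 3 S-locus glycoproteins, and together they had an RPKM of 409 in receptive gall, 384 in pollinated gall, 289 in receptive seed and 318 in pollinated seed flowers. G-type lectin kinases share the lectin and S-locus domains of the Brassica stigma receptor, and several act in defence and stress responses in other plants. By stage, 1 of the 7 members above the minimum was past the fold in gall flowers, where 6.45% of all transcripts were higher and 5.7% lower, and 2 were in seed flowers, where 13% were higher and 10.6% lower.

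Locus 6215, the most abundant of them and RLK1-like, had an RPKM of 73.5 in receptive gall, 42.1 in pollinated gall, 59.3 in receptive seed and 28.6 in pollinated seed flowers. Both pollinated libraries were lower, at ratios of 0.574 (0.557 to 0.591) in gall and 0.483 (0.452 to 0.515) in seed flowers, of which the second was past the fold. Locus 2383, At1g34300-like, went the other way, with 7.86, 24.8, 3.74 and 7.16 and ratios of 3.15 (2.93 to 3.39) in gall and 1.92 (1.54 to 2.40) in seed flowers. It was the member past the fold as higher in pollinated gall flowers.

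A second At1g34300-like kinase, Locus 9268, had the largest stage ratio in gall flowers of the 110 members with at least 10 reads in both gall libraries. It had 62 reads in receptive gall, 620 in pollinated gall, 10 in receptive seed and 82 in pollinated seed flowers (RPKM 0.783, 6.78, 0.557 and 2.39). Its stage ratio was 8.66 (6.66 to 11.4) in gall and 4.29 (2.22 to 9.28) in seed flowers, with a log2 difference of 2.64 and an adjusted p of 0.188 in edgeR's quasi-likelihood test (0.00470 to 0.173 over 4 alternatives, 0.0255 in DESeq2).

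Locus 1398, At4g27290-like, had an RPKM of 48.9 in receptive gall, 29.6 in pollinated gall, 7.54 in receptive seed and 20.2 in pollinated seed flowers. As for Locus 16091, receptive seed flowers were low. Its stage ratio was 0.605 (0.589 to 0.621) in gall and 2.68 (2.43 to 2.97) in seed flowers. At least 10 reads in every library were found for 38 S-locus and S-receptor type members. Of these, 15 had a ratio below 1 in gall and above 1 in seed flowers, and 15 were above 1 in both. Another 4 were below 1 in both, and 4 were above 1 in gall and below 1 in seed flowers. Over all 20812 transcripts with as many reads, these counts were 5277, 5247, 4643 and 5645 in the same order.

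The most abundant S-locus proteins other than kinases were under the fold by stage. Locus 5383, an S-locus F-box brother, a type of F-box protein from the pollen side of the S locus in the rose family, had an RPKM of 20.2 in receptive gall, 16.0 in pollinated gall, 22.2 in receptive seed and 26.1 in pollinated seed flowers. Locus 21391, an S-locus-specific glycoprotein, had 20.2, 14.1, 19.1 and 22.6. Neither was past the fold in any comparison.

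**Figure D3:**
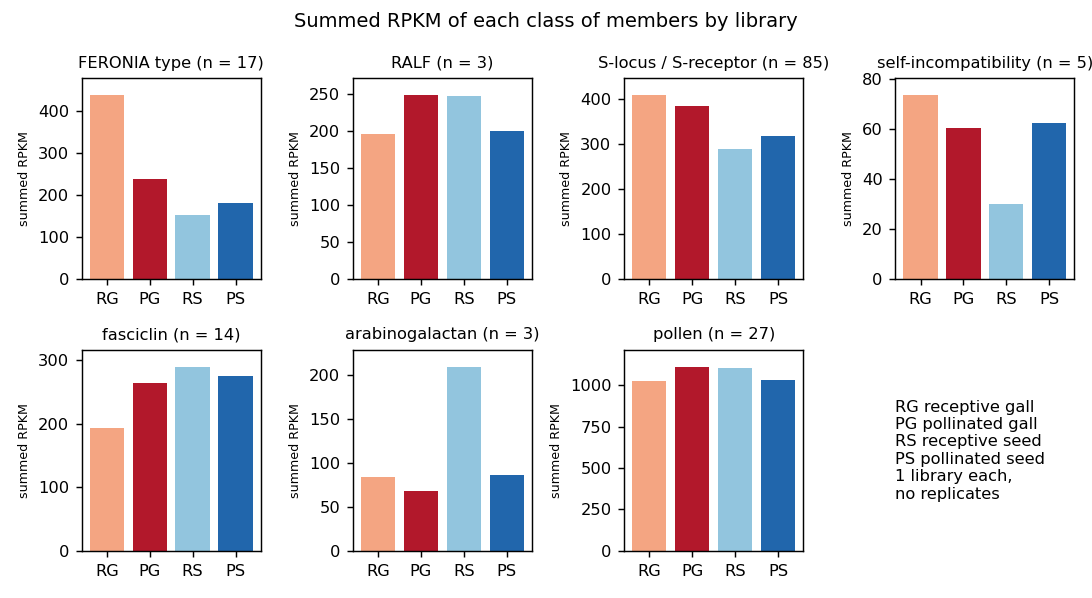
Summed RPKM of each class of members in the 4 libraries (RG receptive gall, PG pollinated gall, RS receptive seed, PS pollinated seed flowers), each panel with its own axis from 0 and no error bars because there is 1 library per flower type. FERONIA type kinases are highest in receptive gall flowers (436), arabinogalactan proteins are highest in receptive seed flowers (210) and proteins named after pollen lie between 1027 and 1110.

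Between flower types, most receptor kinases with enough reads had a higher level in gall flowers. In receptive flowers 8 of the 34 members above the minimum were past the fold as higher in gall flowers, against 18.3% of all transcripts, and 4 were higher in seed flowers, against 21.7% of all. In pollinated flowers 3 were higher in gall flowers, against 9% of all, and 1 was lower, against 5.41% of all. The 8 were 5 receptor kinases (Locus 146, Locus 1171, Locus 1398, Locus 2383 and Locus 5292), Locus 16091, the SF21-like Locus 36035 and the fasciclin-like Locus 5162, and the 4 higher in receptive seed flowers were Locus 335, Locus 47072, Locus 28145 and Locus 4808. As shares of the 34, 23.5% and 11.8% in receptive and 8.82% and 2.94% in pollinated flowers stand beside the background shares above. The median log2 ratio of gall over seed was 0.03 for members and -0.14 for all transcripts in receptive flowers, and 0.25 against -0.12 in pollinated flowers. TMM scaling moved the median of all transcripts to -0.03 and 0.01 and that of members to 0.14 and 0.38.

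In the additive model the median log2 difference of gall over seed was 0.66 over the 112 members fitted and 0.06 over all 27675 transcripts. edgeR's quasi-likelihood test called no member for flower type, where 0.0434% of all transcripts were called as higher and 0.00361% as lower in gall flowers. At an unadjusted p under 0.05 there were 31 members (27.7%, against 12.5% of all transcripts), 26 of them higher in gall flowers and 5 lower, and DESeq2 called 12 members, 10 higher and 2 lower, where it called 4.7% of all transcripts as higher and 0.777% as lower. The median was 1.36 for the 12 FERONIA type kinases fitted, of which 11 were above 0. It was 1.28 for the 54 of the S-locus and S-receptor type, of which 41 were above 0. Of all 27675 transcripts fitted, 14655 were above 0. The other classes with more than 4 members fitted lay near 0, at 0.20 for 24 pollen-named and -0.06 for 12 fasciclin proteins.

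G-type lectin kinases with at least 10 reads in both libraries were above 1 in the ratio of gall over seed flowers in 20 of 27 cases in receptive flowers, with a median of 2.04, and in 22 of 30 in pollinated flowers, with a median of 1.82. The same medians were 0.853 and 0.887 over all transcripts, and 1.29 and 1.08 over receptor kinases outside the group (253 and 287 transcripts with enough reads). Above 1 were 41.6% and 38.8% of all transcripts, and 64.8% and 55.1% of the receptor kinases outside the group. The RLK1 and RLK1-like subtype was above 1 in all 9 cases in receptive flowers and in all 11 in pollinated flowers, with medians of 2.69 and 2.37. The At4g27290-like subtype was above 1 in 5 of 7 and 3 of 7 cases, with medians of 1.61 and 0.889.

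Long transcripts were read relatively less than shorter ones in receptive seed flowers. Over all transcripts of at least 2000 bp the median ratio of gall over seed was 1.13 in receptive and 0.916 in pollinated flowers, and the 29 and 30 S-locus and S-receptor type members of that length had medians of 1.98 and 1.61. In the class of 1000 to 2000 bp the medians were 0.829 and 0.918 for all transcripts and 0.934 and 1.65 for 6 and 9 members. The part of transcript length was not tested beyond these values.

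**Figure D4:**
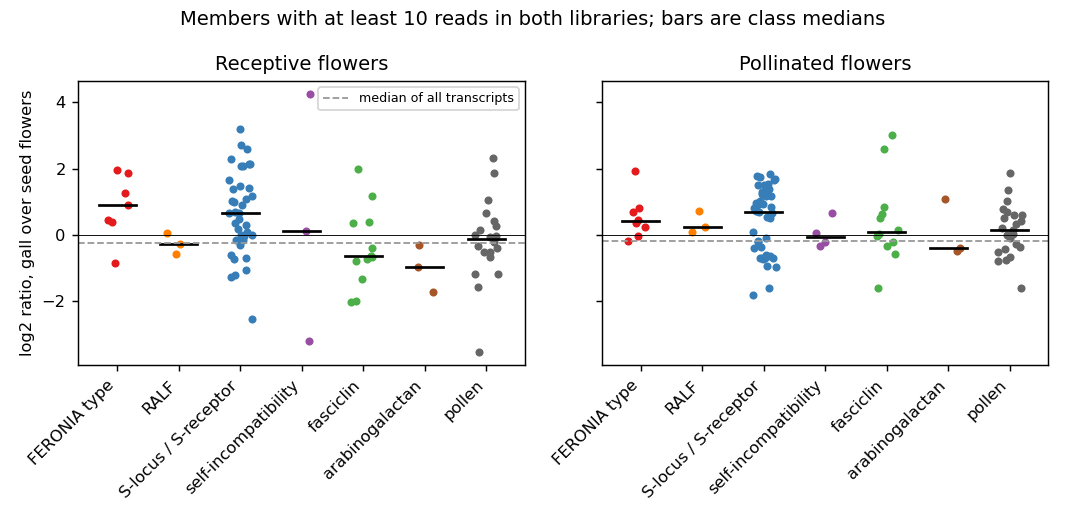
Log2 ratio of gall over seed flowers for members with at least 10 reads in both libraries, by class, in receptive (left) and pollinated flowers (right), with a black bar at each class median and a dashed line at the median of all transcripts. FERONIA type and S-locus or S-receptor type members lie mostly above the dashed line at both stages, whereas the fasciclin proteins are mostly below it in receptive flowers.

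Locus 5292, an S-locus lectin protein kinase, and Locus 2383 were the members past the fold as higher in gall flowers at both stages. Locus 5292 had an RPKM of 26.5 in receptive gall, 14.5 in pollinated gall, 5.43 in receptive seed and 7.19 in pollinated seed flowers. The ratio of gall over seed was 4.89 (4.19 to 5.74) in receptive and 2.02 (1.82 to 2.25) in pollinated flowers, and its adjusted p was 0.153 in edgeR's quasi-likelihood test (0.00247 to 0.148 over 5 alternatives, 0.0135 in DESeq2). Locus 4808, another G-type lectin kinase, was the reverse, with 12.7, 10.8, 29.1 and 20.6 and ratios of 0.435 (0.403 to 0.469) and 0.521 (0.487 to 0.558).

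Fasciclin-like arabinogalactan proteins stood on both sides. Locus 28145 had an RPKM of 15.1 in receptive gall, 15.4 in pollinated gall, 60.3 in receptive seed and 46.3 in pollinated seed flowers, so that both seed libraries were above both gall libraries. It was the member past the fold as lower in gall flowers at both stages, with ratios of 0.250 (0.233 to 0.268) and 0.332 (0.312 to 0.353) and an adjusted p of 0.111 in edgeR's quasi-likelihood test (0.00716 to 0.112 over 5 alternatives, 0.00839 in DESeq2). Locus 31216, described as fasciclin-like arabinogalactan protein 13, was the opposite case, with 8.17, 19.9, 2.08 and 2.49 and ratios of 3.93 (2.68 to 5.98) and 8.0 (6.22 to 10.4).

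The smallest adjusted p for flower type was 0.0840 in edgeR's quasi-likelihood test, for Locus 2655, described as protein ruptured pollen grain, and it was 0.000188 to 0.0781 over 4 alternatives, with 0.000659 in DESeq2. In Arabidopsis this is a sugar transporter needed for the pollen wall. Its RPKM was 12.5 in receptive gall, 13.9 in pollinated gall, 2.49 in receptive seed and 3.83 in pollinated seed flowers, so that both gall libraries were above both seed libraries, at ratios of 5.01 (3.99 to 6.38) and 3.64 (3.17 to 4.19). A second transcript of this description, Locus 18152, had 36.1, 52.9, 29.8 and 39.9, with ratios of 1.21 and 1.33.

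In the deposited annotation the GO term recognition of pollen was listed for 54 transcripts, of which 18 were members, all of the S-locus and S-receptor type. None of the FERONIA, RALF, arabinogalactan or pollen-named members carried it. Of the 36 outside the rule, 2 were above the RPKM minimum. One of them, Locus 3928, described as a serine threonine protein kinase, had an RPKM of 55.8 in receptive gall, 71.4 in pollinated gall, 15.2 in receptive seed and 47.3 in pollinated seed flowers. The other, Locus 60, with no more than protein as its description, had 7.38, 44.5, 3.08 and 20.8 and stage ratios of 6.03 (5.52 to 6.59) in gall and 6.76 (5.14 to 9.07) in seed flowers.

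Partners of these receptors, taken from a list of families by description, were mostly under the fold by stage. In gall flowers 2 of 37 U-box and armadillo proteins above the minimum, the family of the Brassica S-receptor partner ARC1, were lower (5.7% of all transcripts) and none was higher (6.45%), and in seed flowers 6 were higher (13% of all) and 1 was lower (10.6%). No other family had a call by stage in gall flowers. In seed flowers 1 of 6 BAK1 and SERK co-receptor kinases, 1 of 3 MLO proteins, 1 of 2 respiratory burst oxidases and the single ROP GTPase above the minimum were higher in pollinated flowers, and none of these was lower. The 3 ROP exchange factors, the 3 thioredoxin h transcripts and the LORELEI type transcript had no call by stage, and no EXO70, THESEUS type or T2 ribonuclease transcript was above the minimum.

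The LORELEI type transcript Locus 2254, for an anchored protein that accompanies FERONIA in Arabidopsis, had an RPKM of 45.3 in receptive gall, 76.0 in pollinated gall, 67.1 in receptive seed and 81.8 in pollinated seed flowers. The respiratory burst oxidase Locus 6315, of the enzymes that make the reactive oxygen downstream of FERONIA, had 99.4, 66.0, 12.7 and 72.1. It was low in receptive seed flowers, like Locus 16091 and Locus 1398, with a stage ratio of 5.69 there and 0.663 in gall flowers. The MLO protein Locus 6411, from a family in which NORTIA acts in pollen tube reception in Arabidopsis, had 40.8, 24.9, 9.40 and 38.6, and the ROP GTPase Locus 9415 had 56.4, 34.8, 27.5 and 72.5. In each of these 3 the receptive seed library was the lowest. Other partners were highest there. The BAK1 and SERK kinases with the highest levels, Locus 3862 and Locus 1099, had 104, 105, 161 and 139, and 72.4, 127, 174 and 113. All thioredoxin h transcripts together had a summed RPKM of 331, 302, 533 and 353.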

How the data were processed

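RNA of the 4 pooled flower samples was sequenced as paired reads, 1 library per flower type. The submitters' processing notes name FastQC 0.10.0 and Trimmomatic 0.22, and the authors removed the first 10 bp of each read and reads under 75 bp, built a joint assembly of the libraries in Oases, represented each locus by its longest sequence and mapped the reads of each library to it in CLC Genomics Workbench. Per transcript, the authors deposited a count of mapped reads and a count of those with a unique position, which were used unscaled, and they deposited RPKM values, in which the former count is scaled by transcript length and library depth. A further 12 deposited columns were not used. If both mates of a pair were counted, intervals are too narrow. No sequence of a transcript was used here.

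Libraries held 11584069 to 58969477 mapped reads. Ratios, the RPKM minimum of 20 and the fold of 2 were computed with Python 3.11.15 and scipy 1.17.1. For ratios, 0 reads were replaced by 3. The study's own test, Kal's Z-test on RPKM, was run as an alternative. Like the fold rule, it has no measure of spread between samples. The additive model used edgeR 4.0.16 in R 4.3.3 with TMM scaling and transcripts with at least 10 reads in at least 2 libraries (common biological coefficient of variation 0.411), and DESeq2 1.42.0 was an alternative. The scripts were tested on simulated data. Classes, partner families and marker lists were found by words in the descriptions.

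The members, lists and tests were chosen with earlier results of these data known, and the words for ribonucleases were adjusted after the descriptions were seen. Transcripts were named where they had one of the 4 highest mean RPKM in a class, one of the 4 largest ratios in a direction of a comparison among members past the fold with at least 10 reads in both libraries, or one of the 2 highest levels in a partner family. Named after their values were seen were Locus 28692, 11823, 32125, 38847, 6728, 9913, 8508, 42200, 47626, 9268, 31216, 2655, 18152, 36035, 5162, 3928, 60, 6373, 4024 and 20582, the members nearest to the minimum, the kinase subtypes, the length classes and the receptor kinases outside the group. Alternatives were uniquely mapped reads, TMM and median ratio scaling, other RPKM minimums, a fold of 1.5, 1 added to each RPKM, transcripts of at least 500 bp, thinning to the smallest library, Kal's Z-test, and for the model DESeq2 size factors, the DESeq2 Wald test and other filters. Removal of the length trend was chosen after the data were seen.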

Additional observations from a re-analysis of the deposited data

Results flagged for a closer look

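Stage ratios on opposite sides of 1 in gall and seed flowers were looked for among the members named by level or ratio. Only members above the minimum were used, with both intervals leaving out 1 and at least 1 ratio past the fold. Such ratios were found for 4 members, and gall over seed ratios of that kind for 1. How many of all transcripts meet this rule was not counted. Differences between the ratios could not be tested across samples, since each flower type has 1 library. The log2 stage ratio in gall flowers minus that in seed flowers was -1.51 for Locus 146 (FERONIA type; ratios 0.424 and 1.21), 1.22 for Locus 335 (arabinogalactan protein 16; 1.10 and 0.470), -4.18 for Locus 16091 (S3 locus-linked pollen protein; 0.657 and 11.9) and -2.15 for Locus 1398 (G-type lectin kinase; 0.605 and 2.68). For Locus 7218, arabinogalactan peptide 16-like, the log2 ratio of gall over seed flowers in receptive minus that in pollinated flowers was -1.38 (ratios 0.816 and 2.13). The receptive seed library, the one with the fewest reads, was the lowest of the 4 for Locus 146, Locus 16091 and Locus 1398 and the highest for Locus 335 and Locus 7218. Divided by the median ratio of transcripts of the same length class, the stage ratio in seed flowers was 12.4 for Locus 16091 and 2.23 for Locus 1398.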

How the results depend on the processing

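No paired analysis was possible because the labels give no replicate numbers and each flower type has 1 library, and for the same reason no replicate could be left out; the additive model compared stages within flower types and flower types within stages. For the 31 members named by level or ratio, no ratio past the fold changed direction, with 510 of 620 values moving by less than their counting interval. The alternatives were uniquely mapped reads, TMM and median ratio scaling, 1 added to each RPKM and thinning. Transcripts listed by number as named after their values were seen were not part of this check. Counts depended on the thresholds. In what follows, past the fold means higher then lower for pollinated over receptive gall flowers (1 and 5 in the report), the same for seed flowers (2 and 6), gall over seed in receptive flowers (8 and 4) and gall over seed in pollinated flowers (3 and 1). With an RPKM above 5 as the minimum (71 members) the counts were 7 and 8, 6 and 11, 19 and 10, and 14 and 3 (all transcripts 9.21% and 6.08%, 14.1% and 12.1%, 18.5% and 21.7%, 11.1% and 6.89%), and the median log2 ratio was 0.034 in the first, where it was -0.09 in the report, and 0.14 in the last. With a fold of 1.5 they were 4 and 10 in the first (all 15.4% and 13.7%), 4 higher in the second (23.2%), and 10 and 6 in the last (16.4% and 17.4%). With a mean RPKM above 20, 0 were higher in the first (all 5.16%), 4 in receptive flowers (16.8%) and 1 in the last (7.71%). Kal's Z-test gave 2 and 2 in the first (all 8.38% and 6.66%) and 0 higher in the last (9.38%). Uniquely mapped reads gave 2 higher (all 6.31%) and thinning 3 higher (6.74%) in the first, with a median log2 ratio of 0.012 after thinning, where 2 were lower in the last (5.67%). Adding 1 to each RPKM left 1 higher in the last (8.57%). Median ratio scaling left 2 lower in gall than in seed flowers when receptive (all 16.3%), with medians of 0.25 there and 0.39 in the last, and TMM scaling gave a median of 0.38 in the last. With the length trend removed, a setting chosen after the data were seen, the medians were -0.20, 0.20 and 0.37 in the first, in receptive flowers and in the last. In the model, none was called in either direction by edgeR's quasi-likelihood test. The DESeq2 Wald test called 1 higher and 2 lower by stage (all 1.13% and 0.846%) and 10 higher and 2 lower in gall flowers (4.7% and 0.777%), edgeR without a filter on low counts called 1 and 4 by stage (5.95% and 0.556%) and 16 and 2 by flower type (7.48% and 0.395%), and edgeR on transcripts above the RPKM minimum called 1 lower in gall flowers (0.45%). The cause was not tested. The 2-fold ratios of members with few reads in receptive seed flowers, 51 of 154 with none, are limited by depth.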
